A study of Homo sapiens with 8 samples.

Results

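CHEK1 encodes CHK1, the kinase that ATR activates when replication forks stall or DNA is damaged, and that holds back CDC25 phosphatases and so entry into mitosis. RNA was compared between libraries labelled CHEK1 knockdown and the control of knockdown in 2 human lines, ARP1 and H929, of multiple myeloma, the cancer of antibody-secreting plasma cells. Members were chosen by genotype label, giving 4 of the 8 libraries of the series: 1 library labelled knockdown and 1 control of knockdown in each line. The other 4 libraries are CHEK1 overexpression and the control of overexpression, 1 of each per line. The labels name no construct, vector, time point or clone for any genotype, and give no treatment, so what the controls carry is not known beyond their names. The 2 lines serve as the replicates of each genotype (n = 2). Nothing in the labels says that a library came from more than 1 culture, so a p-value covers nothing beyond the spread among these libraries.

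Plasma cells make and secrete large amounts of protein and therefore depend on the stress pathways that match translation to folding, degradation and amino acid supply. In one of these, the integrated stress response, kinases that sense misfolded protein, missing amino acids, haem shortage or viral RNA phosphorylate the translation factor eIF2. General translation then slows while the mRNA of the transcription factor ATF4 is translated more, and ATF4 with its C/EBP partners switches on genes for amino acid synthesis, amino acid uptake and tRNA charging. Bulk RNA gives one level for a whole culture, so fewer cells of one state and less RNA per cell cannot be told apart.

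Levels are FPKM, fragments scaled to transcript length and library size, summed over the transcripts of a gene that are 300 nt or longer. The 8 libraries summed to between 631871 and 693299 FPKM, and 12965 to 13957 genes reached an FPKM of 1 in a library. Read depth is unknown, and no counting error can be attached to a level. All 8 markers of plasma cells that were listed passed the filter on low values (FPKM 1 or more in 2 or more of the 8 libraries), with SDC1 between 207 and 223 FPKM in the 4 libraries and SLAMF7 at 0.0778 FPKM in the H929 control. Of 30 markers of B, T, NK, myeloid, erythroid, stromal and epithelial cells 9 passed that filter, 20 stayed under FPKM 1 in all 4 libraries, and the highest reached 6.13 FPKM (BANK1, in the ARP1 library labelled knockdown).

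CHEK1 RNA itself, the check of the labels, measured 61.0 FPKM for the control of knockdown and 51.6 for labelled knockdown in ARP1. In H929 the control had 80.7 FPKM and labelled knockdown 84.8. It was thus lower in the library labelled knockdown in ARP1 and higher in H929, and the groups overlapped. The log2 fold change over both lines was -0.08 (SE 0.20, limma adjusted p = 0.899). The gene lies on chromosome 11 (GRCh38, 125625136 to 125676255, plus strand) and overlaps another annotated gene, and no strand is stated for the counting. Its most abundant transcript over the libraries, CHEK1-218, stood at 16.7 and 12.5 FPKM in the ARP1 control and labelled knockdown and at 22.1 and 24 in H929. CHEK1-208 was at 2.26 FPKM for the control and 4.59 labelled knockdown in ARP1, against 18.5 and 21.7 in H929, and CHEK1-203 at 12.3 and 12.8 against 18 and 18.1. A pair of short transcripts swapped in ARP1: CHEK1-209 had 11.4 FPKM for the control and under 0.001 labelled knockdown, and CHEK1-212 had under 0.001 and 4.03. The fall of CHEK1-209 alone is larger than that of the gene sum in ARP1. The direction of CHEK1 in ARP1 thus depends on how short transcripts are counted. Because the RNA level goes against the label in H929, the libraries are called labelled knockdown throughout. A level of RNA does not show the level of the CHK1 protein, which was not measured here.

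Across 14702 tested genes, 11871 of them protein-coding, limma called none at an adjusted p of 0.05 (percent called 0%). The smallest adjusted p was 0.0933, held by 2 non-coding genes. At an unadjusted p of 0.05, 1385 genes passed where 735 would be expected from that level alone: 675 higher (4.59%) and 710 lower (4.83%) in the libraries labelled knockdown. List counts at this p, given below, are to be set beside these shares. The values below are therefore described by their size and by whether both lines show them. Log2 ratios within a line are of FPKM plus 1, rest on 1 library per genotype and have no test, and understate the change of low genes. Over coding genes the median log2 fold change was -0.04.

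Counting any size of ratio, 3083 coding genes were higher in both lines (26.0%) and 3756 lower (31.6%). List counts in both lines, given below, are to be set beside these shares. At 1.5-fold or more in each line, 110 coding genes were higher (0.927% of those tested) and 76 were lower (0.640%), while 43 (0.362%) went opposite ways. With a pseudocount of 0.1 in place of 1 these counts were 211 higher and 205 lower. At 2-fold, 23 were higher (0.194%) and 7 lower (0.0590%). Single lines differed in how much moved: in ARP1 1074 coding genes were at least 1.5-fold higher (9.05%) and 1610 lower (13.6%), in H929 253 (2.13%) and 282 (2.38%). The SD of the log2 ratio over coding genes was 0.51 in ARP1 and 0.28 in H929. Those genes are not independent replicates. Across them the ratios of the lines had a Pearson r of 0.24 and a Spearman rho of 0.23 (n = 11871 genes). The lines share no library in this correlation. For overexpression over its own control, r was 0.26 and rho 0.27. When the controls of each line were compared with each other, r was 0.42 and rho 0.44. The correlation for labelled knockdown was below both, so a value of this size was not particular to that label.

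**Figure D1:**
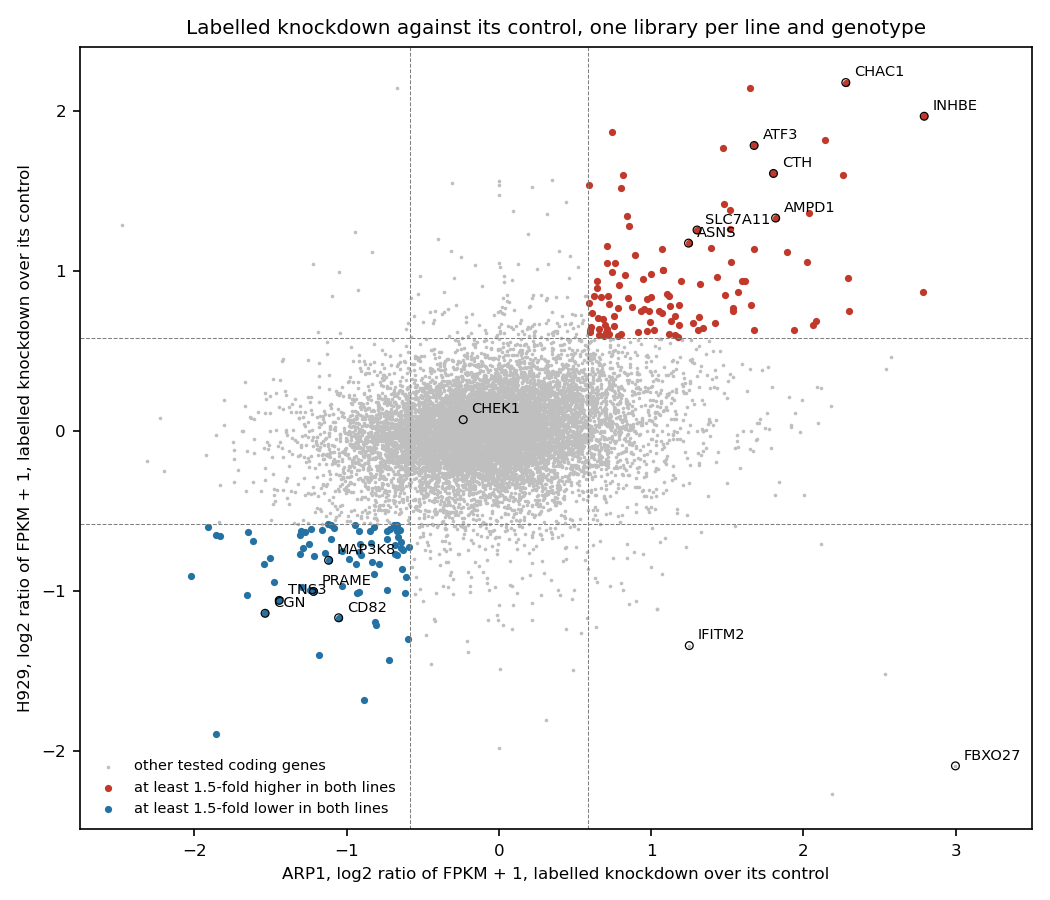
Log2 ratio of FPKM plus 1, labelled knockdown over control of knockdown, in ARP1 (x axis) and H929 (y axis), 1 point per tested protein-coding gene; dashed lines mark 1.5-fold. The 110 genes in red are higher and the 76 in blue lower in both lines, CHEK1 sits near the origin, and FBXO27 lies at 3 in ARP1 and -2.10 in H929.

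For scale, the same count between overexpression and its control gave 55 genes higher (0.463%) and 69 lower (0.581%) in both lines. Between the control of overexpression and the control of knockdown, 92 were higher (0.775%) and 246 lower (2.07%). The control of knockdown enters both this last comparison and the one reported here, so the counts are not independent. In 85 of the 110 genes the library labelled knockdown was the highest of the 4 in both lines (11.3% of coding genes), and in 24 the control of knockdown was the lowest of the 4 in both (7.25%). Of the 76 lower genes, the library labelled knockdown was the lowest of the 4 in both lines in 26 (12.5% of coding genes), whereas the control of knockdown was the highest in both in 52 (11.0%). Both sets of genes were chosen by the ratio of labelled knockdown to its control, so part of each count was fixed beforehand. The percentages cover all coding genes without that choice and are not a matched background.

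The 15 genes ranked highest by the ratio nearer to 0 included ATF3, CHAC1, SESN2, INHBE and STC2 of the ATF4 list, the transporters SLC6A9 and SLC7A11, and the enzymes ASNS, CTH and GPT2. CHAC1 (chromosome 15, GRCh38, 40952962 to 40956519), an enzyme that cleaves glutathione, went from 12.4 to 63.9 FPKM in ARP1 and from 3.59 to 19.8 in H929. Both labelled knockdown libraries were above all 6 others, which lay between 2.66 and 12.4 FPKM. The log2 fold change was 2.23 (SE 0.33, unadjusted p = 0.000208, limma adjusted p = 0.339). INHBE, the beta E subunit of inhibins, a secreted hepatokine, was at 10.8 and 80.9 FPKM in ARP1 and 1.91 and 10.4 in H929, so each line was higher but the groups overlapped (log2 fold change 2.38, SE 0.44, limma adjusted p = 0.417). SESN2, sestrin 2, a leucine sensor that restrains mTORC1, was at 23.6 and 117 FPKM in ARP1 and 7.86 and 25.9 in H929, with no overlap. ATF3, a transcription factor of the ATF family that many stresses induce, was at 8.37 and 28.9 FPKM in ARP1 and 3.70 and 15.2 in H929, with no overlap. It had the smallest unadjusted p of these genes (6.04e-05, log2 fold change 1.73, SE 0.21, limma adjusted p = 0.296). The 4 libraries of the overexpression pair held ATF3 between 3.70 and 6.72 FPKM.

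Enzymes and transporters followed. CTH, which makes cysteine from cystathionine, went from 14.6 to 53.4 FPKM in ARP1 and from 9.79 to 32.0 in H929, with no overlap (log2 ratios 1.80 and 1.61). SLC7A11, the cystine importer, was at 11.3 and 29.3 FPKM in ARP1 and 8.80 and 22.4 in H929, also with no overlap, and at 3.88 to 7.73 FPKM in the overexpression pair. SLC6A9, a glycine transporter, was at 8.97 and 43.0 FPKM in ARP1 and 2.22 and 10.4 in H929. Cystine uptake, cysteine synthesis and glycine uptake feed the same product, glutathione, which CHAC1 breaks down.

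ASNS (chromosome 7, GRCh38, 97852118 to 97872542, minus strand), asparagine synthetase, went from 101 to 241 FPKM in ARP1 and from 38.8 to 88.8 in H929. The lines differ in level more than the genotypes do, so the groups overlapped, yet the log2 ratios were alike at 1.24 and 1.18. GPT2, the mitochondrial alanine aminotransferase, was at 22.2 and 59.9 FPKM in ARP1 and 12.3 and 28.5 in H929 (log2 fold change 1.27, SE 0.18, limma adjusted p = 0.339). PCK2, the mitochondrial phosphoenolpyruvate carboxykinase, was at 44.9 and 146 FPKM in ARP1 and 24.4 and 55.0 in H929. STC2, stanniocalcin 2, a secreted glycoprotein, was at 18.3 and 78.2 FPKM in ARP1 and 5.87 and 16.7 in H929, with overlapping groups.

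The remaining 4 of the 15, like PCK2, were on none of the lists. PIP5KL1, a phosphatidylinositol phosphate kinase-like scaffold, had log2 ratios of 1.48 and 1.42 at 1.22 to 35.9 FPKM. GTF2IRD2B, a general transcription factor II-I repeat gene with near-identical copies nearby, had ratios of 1.52 and 1.38, and its share of reads between copies is uncertain. Its log2 fold change was 1.45, but 0.38 against the control of overexpression. MEI1, a gene of meiotic recombination, had 1.47 and 1.77, but in H929 its level labelled knockdown, 13.2 FPKM, was below the 14.5 and 23.2 of the overexpression pair. The log2 fold change of MEI1 was 1.62, but 0.1 against the control of overexpression. AMPD1, the AMP deaminase of muscle, had 1.82 and 1.33, with 27.4 FPKM in the ARP1 and 19.3 in the H929 control of overexpression against 34.5 and 12.4 in the libraries labelled knockdown. Against that other control its log2 fold change was -0.14, so its direction turns with the control. In the other 13 of the 15 the library labelled knockdown was the highest of the 4 in both lines.

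**Figure D2:**
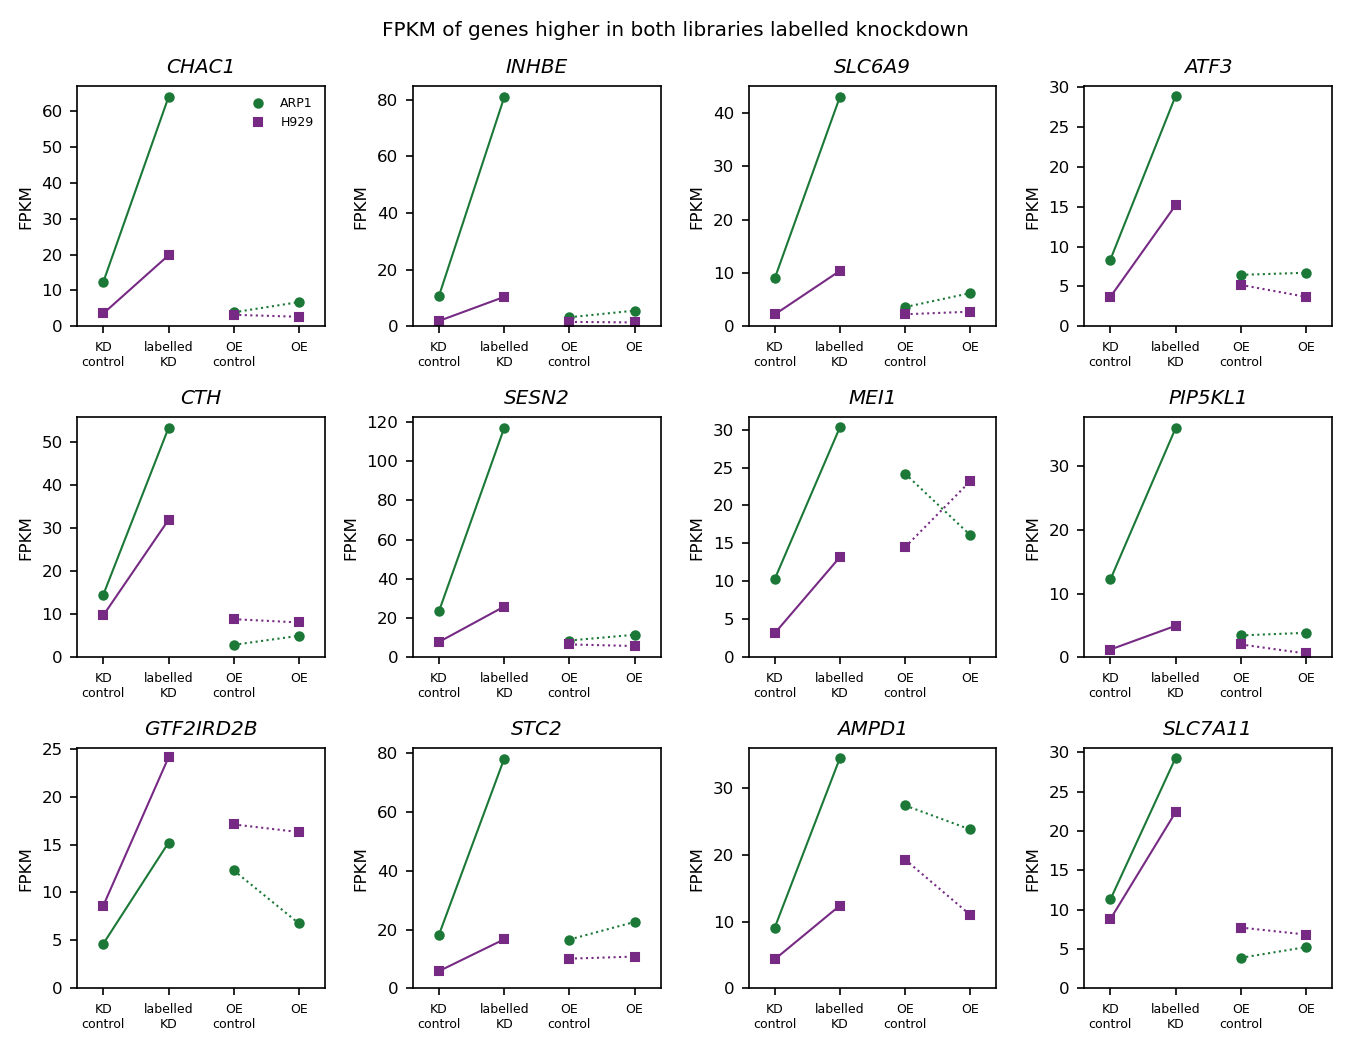
FPKM (y axis, from 0) of 12 of the 15 highest-ranked genes in the 8 libraries, circles for ARP1 and squares for H929, 1 library per point, with KD for knockdown and OE for overexpression. Lines join each library to its own control. CHAC1 and SESN2 stand highest in the libraries labelled knockdown of both lines, whereas MEI1 and AMPD1 reach similar levels in the overexpression pair.

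Of 22 listed ATF4 pathway factors and stress targets 19 passed the filter. In 18 of these the library labelled knockdown was higher in both lines, where 26.0% of coding genes were, and in 11 by at least 1.5-fold in each. By limma 15 had an unadjusted p under 0.05, all higher, and 0 passed after adjustment. The median log2 fold change was 1.16 (1.57 in ARP1 and 0.71 in H929), against -0.04 over coding genes. Leaving out labelled knockdown in ARP1 gave a list median of 0.67. ATF4 itself was at 347 and 618 FPKM in ARP1 and 191 and 377 in H929, with no overlap (log2 fold change 0.90, SE 0.18, limma unadjusted p = 0.00138). CEBPB, a C/EBP factor that pairs with ATF4, was at 17.8 and 55.8 FPKM in ARP1 and 13.2 and 26.1 in H929. DDIT3 encodes CHOP, the factor that links lasting stress to cell death. It was at 8.32 and 39.3 FPKM in ARP1 (log2 ratio 2.11) and at 9.51 and 11.7 in H929 (0.27). TRIB3, a pseudokinase that restrains ATF4, was at 20.9 and 91.7 FPKM in ARP1 and 17.5 and 28.8 in H929. PPP1R15A, the subunit that steers a phosphatase back to eIF2, had log2 ratios of 1.60 and 0.42. EIF4EBP1, the cap-binding inhibitor 4E-BP1, was near the same in both lines at 0.65 and 0.71. VLDLR was the one tested member lower in both lines, at -0.11 and -0.41. NUPR1 was listed at 0 in the 4 libraries, and GDF15 and FGF21 did not reach the filter, with at most 0.608 FPKM.

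The genes upstream of ATF4 did not share that pattern. Of 17 genes for eIF2 kinases, eIF2, eIF2B and its phosphatases, 5 were higher and 4 lower in both lines, and the median log2 fold change was -0.13. EIF2AK2, the kinase PKR, had log2 ratios of -0.07 and -0.18, and EIF2S2, the beta subunit of eIF2, 0.64 and 0.16. Control of this step is by phosphorylation, which RNA does not show.

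Amino acid and one-carbon synthesis was higher across most of its steps. Of 20 enzymes, all tested, 15 were higher and 2 lower in both lines. By limma 12 reached an unadjusted p under 0.05, all higher (4.59% of tested genes). The median log2 fold change was 0.54 (0.45 without labelled knockdown in ARP1 and 0.83 without that in H929). The 3 enzymes of serine synthesis were higher in both lines: PHGDH at 74.4 and 147 FPKM in ARP1 and 44.1 and 79.1 in H929, PSAT1 at 122 and 222 and at 56.4 and 139, and PSPH at 41.7 and 72.8 and at 28.4 and 54.3. The mitochondrial folate enzymes were too. ALDH1L2 was at 11.2 and 44.4 FPKM in ARP1 and 5.99 and 14.2 in H929, and MTHFD2 at 137 and 223 in ARP1, against 120 and 181 in H929. The cytosolic folate enzymes did not follow: MTHFD1 was at 89.1 and 63.2 FPKM in ARP1 and 103 and 101 in H929, and SHMT1 had log2 ratios of -0.46 and 0.02. For the aspartate aminotransferases, the cytosolic GOT1 had log2 ratios of 0.79 and 0.22 and the mitochondrial GOT2 -0.86 and -0.03. For proline synthesis, PYCR1 had ratios of 0.60 and 0.56, and ALDH18A1, which acts before it, -0.96 and 0.03.

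Of 17 amino acid transporters 10 were higher and 2 lower in both lines, with 7 at an unadjusted limma p under 0.05, all higher, and a median log2 fold change of 0.42. That median was 0.18 when labelled knockdown in ARP1 was left out. SLC1A5, the glutamine and neutral amino acid exchanger, went from 228 to 454 FPKM in ARP1 and from 146 to 235 in H929. SLC38A2, the sodium-coupled neutral amino acid importer, went from 105 to 209 FPKM in ARP1 and from 76.9 to 130 in H929. SLC36A4 and SLC43A2 were lower in both lines, with log2 ratios of -0.90 and -0.22 and of -0.61 and -0.24.

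Aminoacyl-tRNA synthetases, the enzymes that load tRNAs with amino acids, come in cytosolic and mitochondrial sets, and the difference between the sets was not tested. Of 20 cytosolic genes 13 were higher and 4 lower in both lines (median log2 fold change 0.39, with 0.36 in ARP1 and 0.41 in H929). Of 17 mitochondrial genes 1 was higher and 12 were lower in both (31.6% of coding genes were lower in both), with a median of -0.21 (-0.38 in ARP1 and -0.02 in H929). The mitochondrial median was -0.05 when labelled knockdown in ARP1 was left out. By limma 10 cytosolic genes had an unadjusted p under 0.05, all higher, and 1 mitochondrial gene, lower. GARS, which charges glycine, went from 155 to 263 FPKM in ARP1 and from 65.5 to 137 in H929, and CARS, which charges cysteine, from 37.6 to 80.5 and from 17.1 to 35.5. WARS, for tryptophan, went from 179 to 448 FPKM in ARP1 and from 128 to 211 in H929, although the H929 overexpression library held 259. The 4 cytosolic exceptions were VARS (log2 ratios -0.41 and -0.12), RARS (-0.29 and -0.12), KARS (-0.49 and -0.02) and FARSA (-0.90 and -0.03). GARS and KARS serve both compartments. Among mitochondrial genes NARS2 was at 28.5 and 15.7 FPKM in ARP1 and 28.3 and 23.1 in H929, and PARS2 was the one higher in both lines, at 0.16 and 0.27.

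Together these 4 lists of ATF4 factors, synthesis enzymes, transporters and cytosolic synthetases hold 76 tested genes, and 29 of them are among the 110. The lists were drawn up with earlier results of these data known, so this count is a description.

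Promoter sequence was not used to choose the libraries. The gene lists, however, name targets and enzymes of the ATF4 response, so a match within them is no independent support. The C/EBP-ATF element, to which ATF4 and C/EBP dimers bind, was searched as TGATGNAA on both strands in RefSeq promoter windows (GRCh38.p14, 250 bases before to 50 after each listed start), and 9684 of the 11871 tested coding genes had a window. It was found in 2.74% of these genes. Of the 110 genes higher in both lines 82 had a window and 15 of them (18.3%) held the letters, against 2 of 57 (3.51%) of those lower in both. Among the 15, 9 belong to the 4 lists above. By list it was in 7 of 16 cytosolic synthetases (43.8%), 4 of 13 synthesis enzymes (30.8%), 5 of 17 ATF4 factors and targets (29.4%), 4 of 16 transporters (25.0%) and 1 of 14 mitochondrial synthetases (7.14%). A match is a description of letters, not a site shown to be bound. The 2 whole windows below, 300 bases each and 5′ to 3′ along the gene, are shown because CHAC1 had the largest ratio nearer to 0 and ASNS is a textbook target of ATF4. The match is in capitals.
CHAC1 (chr15:40953221-40953520, plus strand): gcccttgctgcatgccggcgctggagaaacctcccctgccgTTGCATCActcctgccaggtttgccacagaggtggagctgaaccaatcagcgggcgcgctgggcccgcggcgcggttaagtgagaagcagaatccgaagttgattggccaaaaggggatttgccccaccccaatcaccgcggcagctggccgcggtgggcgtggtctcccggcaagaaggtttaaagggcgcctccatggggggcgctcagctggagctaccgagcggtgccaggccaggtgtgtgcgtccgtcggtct
ASNS (chr7:97872359-97872658, minus strand): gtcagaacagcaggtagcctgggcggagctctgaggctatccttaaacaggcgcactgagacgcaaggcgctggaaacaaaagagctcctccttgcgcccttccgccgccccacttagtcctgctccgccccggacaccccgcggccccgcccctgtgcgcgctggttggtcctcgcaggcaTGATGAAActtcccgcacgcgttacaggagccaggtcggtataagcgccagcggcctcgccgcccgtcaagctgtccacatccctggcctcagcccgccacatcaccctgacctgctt

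The other 7 genes of these lists that were 1.5-fold higher in both lines and held the letters are shown as 40-base stretches, written along the gene with the match in capitals, so that the spread of the variable base and of both orientations can be read. SLC1A4, SLC1A5, CARS, AARS and JDP2 carry C or its complement at the variable position, as CHAC1 does.
ATF3 (chr1:212565200-212565239, plus strand): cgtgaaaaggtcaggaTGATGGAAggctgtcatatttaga
JDP2 (chr14:75427990-75428029, plus strand): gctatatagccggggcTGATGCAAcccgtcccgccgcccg
CARS (chr11:3057402-3057441, minus strand): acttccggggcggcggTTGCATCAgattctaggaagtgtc
GARS (chr7:30594829-30594868, plus strand): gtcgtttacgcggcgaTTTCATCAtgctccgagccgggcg
SLC1A5 (chr19:46784888-46784927, minus strand): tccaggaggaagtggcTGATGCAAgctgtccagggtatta
SLC1A4 (chr2:64989376-64989415, plus strand): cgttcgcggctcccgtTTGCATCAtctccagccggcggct
AARS (chr16:70289670-70289709, minus strand): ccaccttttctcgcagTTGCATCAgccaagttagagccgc

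The matches begin 209 bases before the start in CHAC1, 191 in ATF3, 187 in AARS, 97 in SLC1A5, 68 in ASNS, 33 in GARS, 16 in JDP2, 7 in SLC1A4 and 2 in CARS. JDP2, a repressor of AP-1 related to ATF3, was at 10.3 and 18.6 FPKM in ARP1 and 6.47 and 20.5 in H929. It was one of the genes whose ratio was larger in H929 (1.52) than in ARP1 (0.80). Over the 110 genes the ARP1 ratio was the larger in 79.

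The endoplasmic reticulum is where antibody is folded. Of its 28 chaperone, XBP1 and ERAD genes 8 were higher and 7 lower in both lines (26.0% and 31.6% of coding genes). The median log2 fold change was 0.00. Against the control of overexpression that median was -0.29, and with both controls pooled -0.16. ERN1, which encodes the sensor IRE1, was at 19.2 and 83.3 FPKM in ARP1 and 11.1 and 18.2 in H929. HERPUD1, an ERAD component that ATF4 also drives, was at 85.7 and 172 FPKM in ARP1 and 59.6 and 70.9 in H929. Among the 7 lower in both lines was HSPA5, the main ER chaperone BiP, with 114 and 85.7 FPKM in ARP1 and 244 and 170 in H929, where the library labelled knockdown was the lowest of the 4 in both lines. SDF2L1, its co-chaperone, was at 128 and 70.1 FPKM in ARP1 and 129 and 95.6 in H929.

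**Figure D3:**
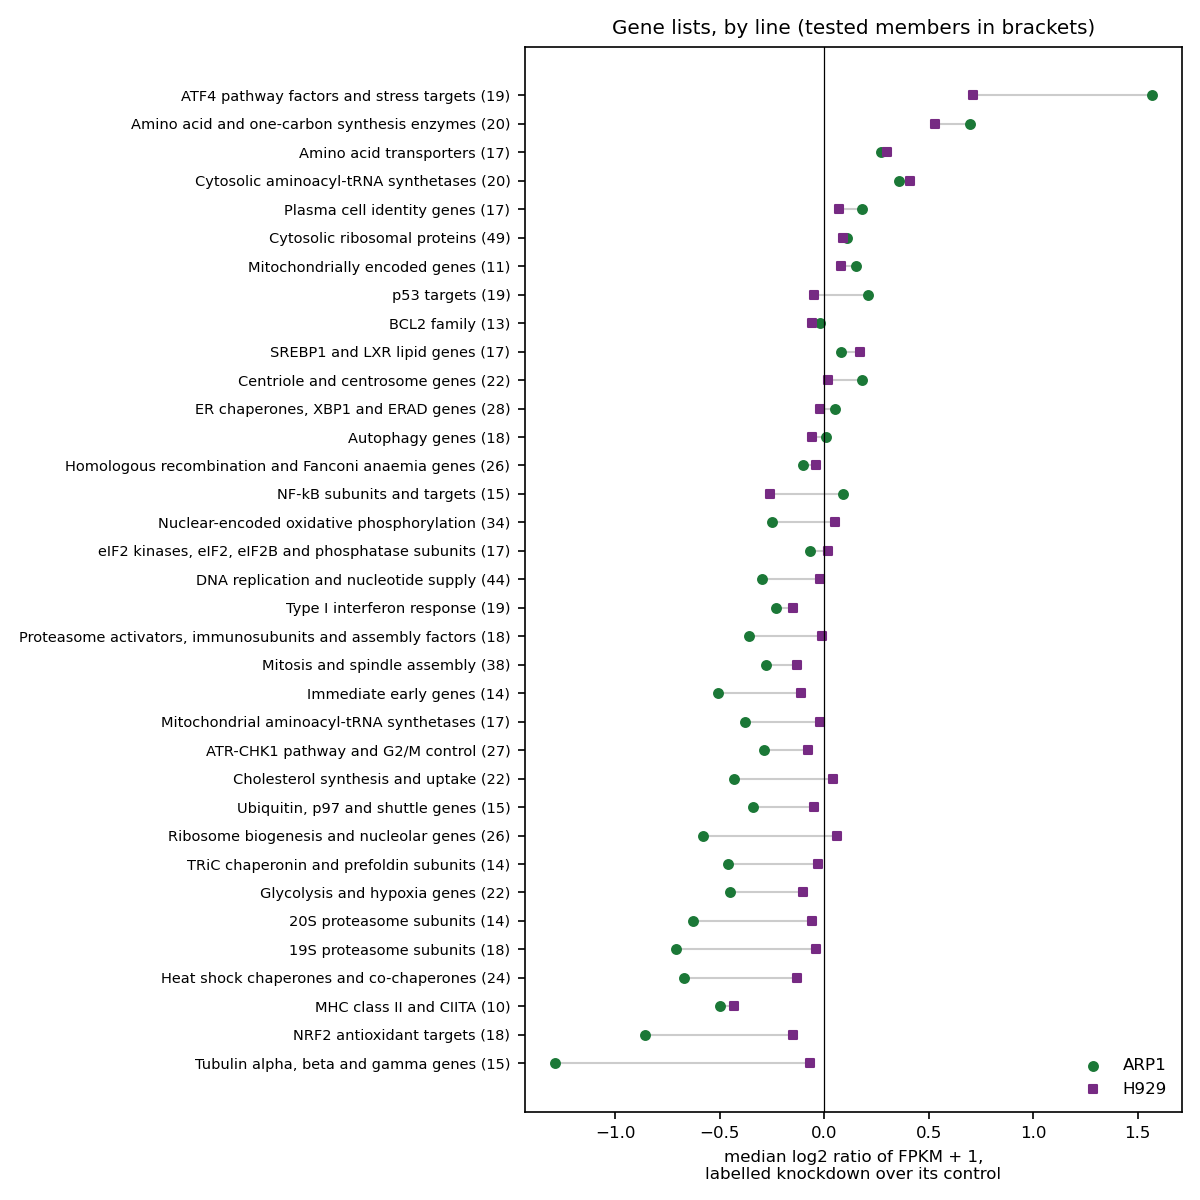
Median log2 ratio of FPKM plus 1 (x axis) over the tested members of 35 gene lists (y axis, number tested in brackets), circles for ARP1 and squares for H929, labelled knockdown over its control. The ATF4 list stands at 1.57 and 0.71 at one end and tubulins at -1.29 and -0.07 at the other, where ARP1 is the farther from 0.

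Genes of cytosolic protein quality control were lower, mostly in ARP1, and the difference between lines was not tested. All 24 heat shock chaperones and co-chaperones had a ratio below 0 in ARP1, where 56.1% of coding genes did, and 19 of 24 did in H929 (49.3% of coding genes). The library labelled knockdown was at least 1.5-fold lower for 15 of them in ARP1 and 1 in H929 (13.6% and 2.38% of coding genes). Medians were -0.67 and -0.13, the median of the fit went from -0.41 to -0.16 when labelled knockdown in ARP1 was left out, and 7 members reached an unadjusted limma p under 0.05, all lower. HSPA8, the constitutive HSC70, went from 869 to 373 FPKM in ARP1 and from 1046 to 819 in H929, and the libraries labelled knockdown were the lowest of the 4 in each line (log2 fold change -0.79, SE 0.23, limma adjusted p = 0.470). HSPB1, the small heat shock protein HSP27, was at 230 and 117 FPKM in ARP1 and 415 and 341 in H929. FKBP4, an HSP90 co-chaperone, was at 97.2 and 24.9 FPKM in ARP1 and 68.2 and 61.4 in H929. HSP90AA1 was at 112 and 57.3 FPKM in ARP1 but 198 and 206 in H929, and DNAJA1 at 53.2 and 21.8 in ARP1 but 51.9 and 51.9 in H929. The TRiC chaperonin and prefoldin, which fold actin and tubulin, had 9 of 14 subunits lower in both lines and none higher, with medians of -0.46 and -0.03.

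The heat shock element bound by HSF1, searched as GAANNTTCNNGAA on both strands, was in 0.465% of the 9684 coding genes with a window and in 7 of 22 heat shock genes (31.8%). That list was made of heat shock genes, so its share follows in part from the choice of members. Of the genes 1.5-fold lower in both lines 0 of 57 held it. Both motifs occurred in the windows of 2 genes. Stretches around the first match in 4 of the 7 show the elements of genes that were lower in ARP1, with the match in capitals.
HSPA8 (chr11:123062340-123062380, minus strand): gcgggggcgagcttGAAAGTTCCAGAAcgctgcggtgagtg
DNAJA1 (chr9:33025262-33025302, plus strand): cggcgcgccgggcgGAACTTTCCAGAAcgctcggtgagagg
HSP90AA1 (chr14:102087106-102087146, minus strand): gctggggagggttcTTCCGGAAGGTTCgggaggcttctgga
HSP90AB1 (chr6:44247764-44247804, plus strand): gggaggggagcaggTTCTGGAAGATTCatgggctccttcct
The ARP1 log2 ratios of these 4 were -1.22, -1.25, -0.96 and -0.66, and the H929 ratios -0.35, -0.00, 0.06 and -0.03.

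Proteasome genes showed the same split between lines. All 14 subunits of the 20S core, the proteolytic barrel that myeloma drugs inhibit, had a ratio below 0 in ARP1 (56.1% of coding genes). In ARP1 8 of them were lower by 1.5-fold or more (13.6%). In H929 11 of 14 had a ratio below 0 (49.3%), 0 by 1.5-fold (2.38%). All 18 subunits of the 19S cap, which unfolds ubiquitinated proteins, were lower in ARP1, 13 by 1.5-fold, and 12 in H929, 0 by 1.5-fold. Medians were -0.63 and -0.06 for the core and -0.71 and -0.04 for the cap. PSMA3, a core subunit, was at 108 and 50.0 FPKM in ARP1 and 148 and 108 in H929, and PSMD14, the deubiquitinase of the cap, at 73.3 and 36.6 in ARP1, against 91.3 and 72.7 in H929. PSMB5, the subunit that bortezomib binds, was at 76.2 and 47.0 FPKM in ARP1 but 61.3 and 72.0 in H929. NFE2L1, which encodes NRF1, the factor that drives proteasome genes, went the other way: it was at 47.9 and 133 FPKM in ARP1 and 34.2 and 48.8 in H929, highest of the 4 libraries in both lines. Leaving out labelled knockdown in ARP1 gave medians of -0.11 for the core and -0.03 for the cap.

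Tubulins had the largest list median in ARP1 apart from the ATF4 list. TUBA1B went from 629 to 195 FPKM in ARP1 and stood at 640 and 639 in H929. TUBB was at 605 and 246 FPKM in ARP1 and 739 and 723 in H929, and TUBB4B at 185 and 51.2 in ARP1, against 182 and 143 in H929. Of 15 tested tubulins 10 were at least 1.5-fold lower in ARP1 and 0 in H929 (13.6% and 2.38% of coding genes). The median of the fit went from -0.66 to -0.12 when labelled knockdown in ARP1 was left out. TUBB3 and TUBE1 were higher in both lines: TUBB3, a beta tubulin of neurons, was at 0.197 and 7.26 FPKM in ARP1 and 0.525 and 1.79 in H929, and TUBE1, epsilon tubulin of centrioles, at 9.90 and 21.6 in ARP1, against 5.18 and 9.41 in H929. Summed over the list, tubulin RNA was 1881 and 699 FPKM in ARP1 and 1959 and 1878 in H929. Tubulin genes are close paralogs, so the division of reads among them is uncertain.

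**Figure D4:**
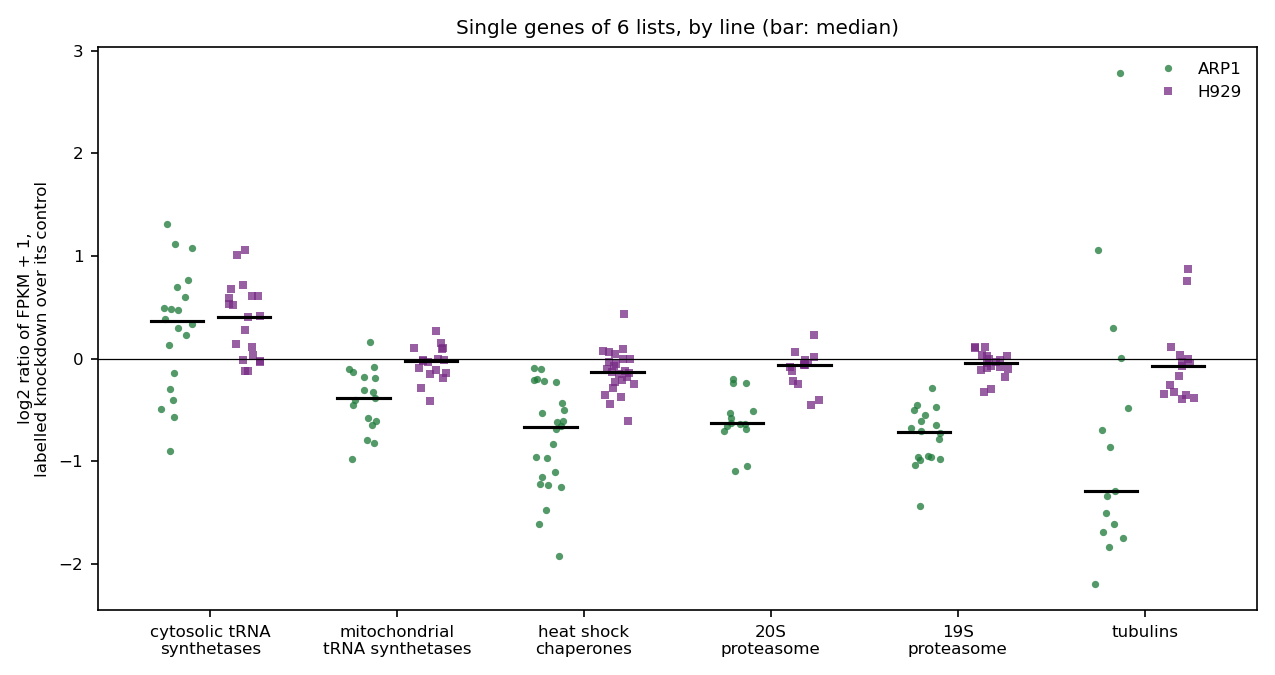
Log2 ratio of FPKM plus 1, labelled knockdown over its control (y axis), for each tested gene of 6 lists (x axis), circles for ARP1 and squares for H929, with a bar at the median. Cytosolic synthetases centre above 0 in both lines (0.36 and 0.41), while the medians of proteasome, heat shock and tubulin genes lie below 0 in ARP1 and nearer 0 in H929. TUBB3 at 2.79 in ARP1 is the highest point.

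NRF2 is the factor of the antioxidant response. Of 18 tested targets 12 were lower and 1 higher in both lines, 6 reached an unadjusted limma p under 0.05 lower and 1 higher, and medians were -0.86 in ARP1 and -0.15 in H929. The median of the fit was -0.51, but -0.08 when labelled knockdown in ARP1 was left out and -0.25 against the control of overexpression. NQO1, a quinone reductase, went from 46.9 to 12.4 FPKM in ARP1 and from 48.2 to 32.1 in H929. HMOX1, haem oxygenase 1, went from 14.3 to 4.40 FPKM in ARP1 and from 39.6 to 22.4 in H929, and SRXN1, sulfiredoxin, from 20.8 to 6.78 and from 35.9 to 25.9. In H929 the levels of NQO1 and HMOX1 in the overexpression pair, 23.0 to 25.6 and 16.4 to 18.9 FPKM, were below those labelled knockdown. The one member higher in both lines was NFE2L2, which encodes NRF2, at 34.8 and 47.8 FPKM in ARP1 and 39.2 and 50.4 in H929. SLC7A11, a target that NRF2 and ATF4 share, was higher in both lines as given above.

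The pathway in which CHK1 acts showed small differences. Of 27 genes for the ATR-CHK1 pathway and for control of G2/M, 16 were lower and 3 higher in both lines. By limma 4 had an unadjusted p under 0.05, all lower (4.83% of tested genes), and the median log2 fold change was -0.21. CDK1, the mitotic kinase, was at 74.0 and 46.5 FPKM in ARP1 and 83.4 and 62.6 in H929, lowest of the 4 libraries in both. TIPIN, which with TIMELESS relays the fork signal to CHK1, was at 16.1 and 9.65 FPKM in ARP1 and 28.7 and 21.0 in H929. CDC25C, a phosphatase that CHK1 inhibits, had log2 ratios of 0.30 and 0.16. Of 44 DNA replication genes 20 were lower and 3 higher in both lines (median -0.16), with RRM2, the regulated subunit of ribonucleotide reductase, at 297 and 208 FPKM in ARP1 and 807 and 635 in H929. Of 38 mitotic genes 30 were lower in both and 1, KIF2C, higher (median -0.19). An unadjusted limma p under 0.05 was reached by 4 of the 38, all lower (4.83% of tested genes). ANLN, anillin of the cleavage furrow, was at 24.2 and 16.6 FPKM in ARP1 and 42.7 and 29.9 in H929, and CEP55, of the midbody, at 27.2 and 18.7 in ARP1, against 34.5 and 27.1 in H929. Homologous recombination and Fanconi genes had 9 lower and 4 higher of 26 in both lines, where 31.6% and 26.0% of coding genes were. FANCM, the fork translocase, was at 8.31 and 5.85 FPKM in ARP1 and 9.81 and 6.45 in H929. Leaving out labelled knockdown in ARP1 gave medians of -0.10 for the ATR-CHK1 list, 0.00 for replication and -0.05 for mitosis.

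Of 19 tested targets of p53 5 were higher and 5 lower in both lines, near the shares over all coding genes (26.0% and 31.6%). BBC3, which encodes the death effector PUMA and which CHOP can also induce, was at 5.42 and 19.4 FPKM in ARP1 and 2.07 and 3.76 in H929. ZMAT3 was at 9.60 and 4.38 FPKM in ARP1 and 8.07 and 6.75 in H929. In the BCL2 family, where BBC3 also counts, 4 were higher and 5 lower of 13.

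Ribosome biogenesis was lower in 24 of 26 genes in ARP1 (56.1% of coding genes), 13 by 1.5-fold (13.6%). In H929 it was lower in 8 of 26 (49.3% of coding genes). Medians were -0.58 and 0.06, and 0.02 in the fit without labelled knockdown in ARP1. The median of the fit was -0.24, but -0.64 against the control of overexpression, so its size depends on the control. In H929 the list summed to 2741 FPKM in the control of knockdown, 2743 labelled knockdown and 3706 in the control of overexpression. BOP1 was at 38.3 and 19.1 FPKM in ARP1 and 37.5 and 34.9 in H929. Cytosolic ribosomal proteins were higher in both lines in 34 of 49 genes, with a median of 0.11 in ARP1 and 0.09 in H929, and with 0 at 1.5-fold in both. The median of the fit was 0.11, but 0.01 against the control of overexpression. Of MHC class II genes, which present antigen and which plasma cells normally silence, 7 of 10 tested were lower in both lines and 1 was higher. The median was -0.42 (-0.50 in ARP1 and -0.43 in H929), but -0.11 against the control of overexpression. HLA-DRA was at 188 and 126 FPKM in ARP1 and 6.30 and 3.04 in H929, but its lowest levels were those of the overexpression libraries, 69.6 and 1.66. Of 22 tested glycolysis and hypoxia genes 13 were lower and 3 higher in both lines (median -0.32, and -0.11 without labelled knockdown in ARP1). PFKM was at 81.8 and 60.3 FPKM in ARP1 and 53.8 and 44.0 in H929. PDK1, pyruvate dehydrogenase kinase 1, had log2 ratios of 0.90 and 0.48. Of 17 lipid genes 7 were higher in both lines, 0 were lower in both and 10 went opposite ways, with a median log2 fold change of 0.07. In ARP1 4 of them were at least 1.5-fold lower. ABCA1, the cholesterol exporter, was at 5.61 and 14.2 FPKM in ARP1 and 1.43 and 3.67 in H929, where the overexpression library held 5.03. SREBF1 was at 38.6 and 85.6 FPKM in ARP1 and 61.9 and 80.1 in H929. Of 17 plasma cell identity genes 9 were higher and 1 lower in both lines, among them TNFRSF17, the target BCMA, at 68.4 and 195 FPKM in ARP1 and 23.0 and 28.8 in H929, where the control of overexpression held 43.6.

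Of the 76 genes at least 1.5-fold lower in both lines 7 belonged to any list. CGN, cingulin of tight junctions, went from 10.4 to 2.93 FPKM in ARP1 and from 6.76 to 2.52 in H929. The libraries labelled knockdown were the lowest of the 8, whose other values lay between 3.91 and 10.4, and the log2 fold change was -1.34 (SE 0.21, limma adjusted p = 0.380). TNFRSF12A, the TWEAK receptor Fn14, was at 8.34 and 1.29 FPKM in ARP1 and 13.3 and 6.62 in H929 (log2 fold change -1.47, SE 0.32, limma adjusted p = 0.418), the lowest of the 4 libraries in each line. MAP3K8, the kinase TPL2 of the ERK and NF-kB routes, was at 8.58 and 3.41 FPKM in ARP1 and 8.19 and 4.24 in H929, lowest of the 4 in each.

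In the other 12 of the 15 lowest-ranked genes the library labelled knockdown was not the lowest of the 4 in both lines, and in 14 of the 15 the control of knockdown was the highest in both. PRAME, a cancer-testis antigen, was at 35.2 and 14.6 FPKM in ARP1 and 3.96 and 1.48 in H929, with 1.05 to 1.11 in the H929 overexpression pair. TNS3, tensin 3 of focal adhesions, was at 4.75 and 1.11 FPKM in ARP1 and 4.77 and 1.77 in H929, with 0.385 to 0.516 in that pair. PTPRF, a receptor tyrosine phosphatase, was at 22.3 and 8.48 FPKM in ARP1 and 11.6 and 5.41 in H929, with 7.33 and 5.66 in the other controls. The same held for GXYLT2, a xylosyltransferase that acts on Notch, at 13.2 and 6.40 FPKM in ARP1 and 2.39 and 0.904 in H929, where the other controls held 2.17 and 0.343. LIMA1, an actin-bundling protein, was at 23.3 and 12.8 FPKM in ARP1 and 26.1 and 13.6 in H929, with 7.21 and 11.3 in the other controls. Measured against the control of overexpression, 7 of the 15 were higher, not lower, in the libraries labelled knockdown: GXYLT2 by 0.86 on the log2 scale, LIMA1 0.50, TNS3 0.31, TANC2 0.25, CYP1A1 0.18, CREB3L3 0.11 and PTPRF 0.07. CYP1A1, a target of the aryl hydrocarbon receptor, and CD82, a tetraspanin, also depended on transcripts: the main transcript of CYP1A1 had log2 ratios of -0.50 and 0.60, and that of CD82 0.09 and -0.38, against -0.81 and -1.22 and -1.05 and -1.17 for the gene sums. TMEM159, of lipid droplets, had ratios of -0.92 and -1.01, SAMD11 -1.03 and -0.97, and IER3, an early response gene, -0.81 and -1.20.

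**Figure D5:**
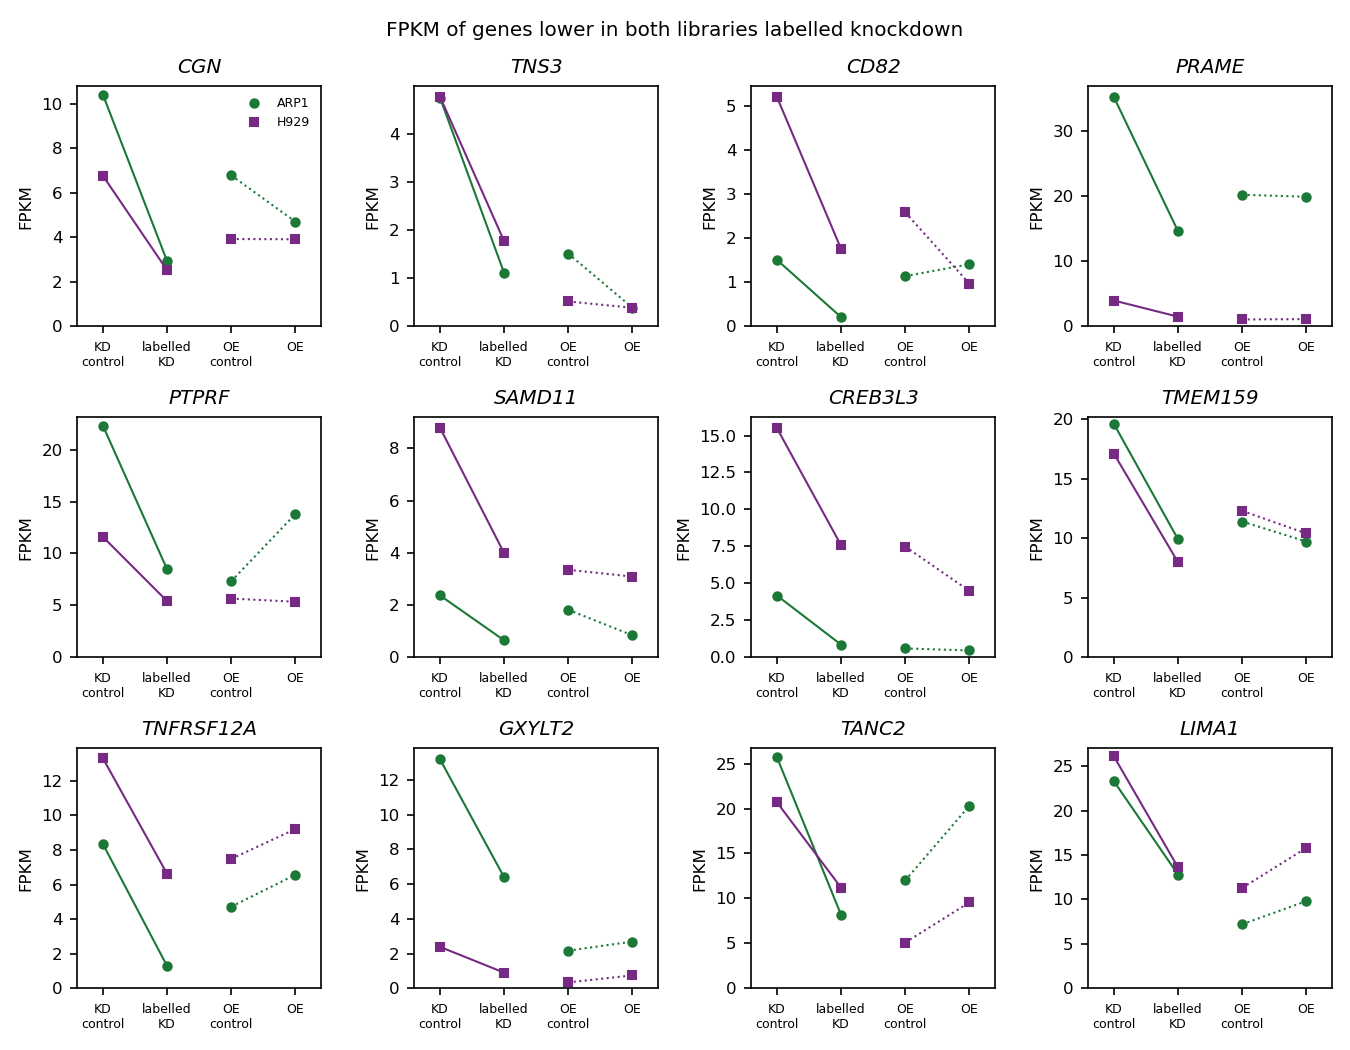
FPKM (y axis, from 0) of 12 of the 15 lowest-ranked genes in the 8 libraries, circles for ARP1 and squares for H929, 1 library per point, with KD for knockdown and OE for overexpression. CGN is lowest in the libraries labelled knockdown, while for TNS3, PTPRF, GXYLT2 and LIMA1 the control of knockdown stands above the 3 other libraries of its line.

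Of 7 listed markers of stroma and epithelium 4 were tested: 2 were lower in both lines, 1 was higher in both and 1 went opposite ways. COL1A1, a fibrillar collagen chain, was at 1.11 and 0.142 FPKM in ARP1 and 3.30 and 0.339 in H929 (limma unadjusted p = 0.00439). KRT18, a keratin, was at 2.66 and 0.797 FPKM in ARP1 and 1.57 and 0.526 in H929 (limma unadjusted p = 0.214). Its partner KRT8 was higher in both lines, at 0.0773 and 0.445 FPKM in ARP1 and 1.61 and 2.26 in H929. PDGFRB, a growth factor receptor of stroma, had log2 ratios of -0.32 and 0.03. DCN was listed at 0 in the 4 libraries and EPCAM at no more than 0.168 FPKM, and the list summed to 4.15 and 1.59 FPKM in ARP1 and 10.4 and 7.21 in H929. The part of these markers in the lower genes was not tested.

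Immediate early genes, which growth signals induce within minutes, were lower on median (-0.21). An unadjusted limma p under 0.05 was reached by 5 of 14, all lower (4.83% of tested genes). EGR1 was at 18.9 and 5.50 FPKM in ARP1 and 80.8 and 49.7 in H929, and DUSP2, a nuclear ERK phosphatase, at 9.80 and 4.72 in ARP1, against 21.9 and 12.5 in H929. JUN was on the other side with log2 ratios of 0.32 and 0.61. Against the control of overexpression the list median was 0.32, so its direction turns with the control.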

How the data were processed

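RNA was measured in 8 libraries, 1 per line (ARP1, H929) and genotype. The authors deposited FPKM per transcript for 88209 transcripts, which the file header calls means without saying of what. Bowtie 0.12.2, HISAT2 2.0 and StringTie 1.3.0 are named per the submitters' processing notes, as is mm8, a mouse build. Since the identifiers are those of human transcripts, mm8 cannot be the build, and the human one used is not stated there. The extraction text in the labels mentions adipose tissue, which does not match the lines. Depth and strandedness are not stated, and 23.4% of values are exactly 0.

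Transcripts were joined to GENCODE 29 (GRCh38): 87707 matched and 502 did not. Those under 300 nt (1035) were left out and FPKM summed per gene, giving 24055 genes, 19505 of them coding. Genes reaching FPKM 1 in 2 or more libraries were fitted as log2(FPKM + 1) in limma 3.58.1 (R 4.3.3) with trended variances, genotype and line as terms, all 8 libraries, 3 residual and 4.4 prior degrees of freedom, two-sided, Benjamini-Hochberg over all tested genes at 0.05. Pairing is by cell line, as the labels give it: both libraries of a pair come from the same line, so the line is a block. The fit was also run on simulated data with independent noise and equal shifts in both lines. Such data lack the unequal spread of ARP1 and H929, so that run does not vouch for these results.

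Named genes were CHEK1, the 15 with the largest and 15 with the smallest value of the ratio nearer to 0 (coding, official symbol, mean FPKM of at least 2, same sign in both lines), up to 4 members and 2 exceptions per list, and 4 genes of opposite sign. Other members named within a list were chosen after their values were seen. Members, lists and this rule were chosen with earlier results of these data known. Promoter windows are from RefSeq (GRCh38.p14), matched by symbol.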

Additional observations from a re-analysis of the deposited data

Results flagged for a closer look

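In each result here the ARP1 and the H929 ratio of labelled knockdown to its control lay on opposite sides of 0. Each line holds 1 library per genotype, so the difference between lines was not tested.

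CHEK1 differed by -0.31 between the lines (ARP1 minus H929, log2 ratios -0.24 and 0.07). FBXO27, a substrate receptor of ubiquitin ligases, differed by 5.1: it was at 1.06 and 15.4 FPKM in ARP1 and 7.22 and 0.924 in H929, and at 0.576 to 1.74 in the overexpression pairs. IFITM2, an antiviral membrane protein, differed by 2.59, with 4.43 and 11.9 FPKM in ARP1 and 13.0 and 4.54 in H929. Both its overexpression libraries were higher still, at 16.4 and 29.7 FPKM. AK1, adenylate kinase 1, differed by 2.15, with 3.49 and 8.24 FPKM in ARP1 and 5.12 and 1.83 in H929. KCNK7, a potassium channel subunit, differed by -2.19, with 3.13 and 1.14 FPKM in ARP1 and 1.88 and 5.81 in H929.

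Among list medians the difference was -0.64 for ribosome biogenesis, -0.47 for cholesterol synthesis, 0.35 for NF-kB genes, -0.3 for nuclear-encoded oxidative phosphorylation and 0.26 for p53 targets. It was -0.09 for the eIF2 genes and 0.07 each for the ER and autophagy lists, with both medians near 0.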

How the results depend on the processing

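Over 25 alternatives and 70 results, 1529 of 1652 values kept direction and call, 88 moved, 21 gained a call and 14 reversed. The number of limma calls was 0 in both directions in most settings. With each library left out in turn, knockdown limma calls higher ranged from 0 to 507 and knockdown limma calls lower from 0 to 816, the highest both without the H929 library labelled knockdown, when the lone ARP1 library is assumed to vary like the other groups. CHAC1 (adjusted p 0.0186) and 12 others of the 15 higher named genes, and 8 of the 15 lower, were then called by limma. Knockdown limma calls lower were 2 with transcripts of any length and 1 with the other control. The fit with no replicate block (line left out) made 0 calls in either direction, and CHEK1 stayed at a log2 fold change of -0.08.

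Shared coding genes higher numbered 211 with a pseudocount of 0.1, 243 against the other control of the line and 23 at 2-fold. Shared coding genes lower numbered 205 with a pseudocount of 0.1, 46 with FPKM of at least 5, 45 with length-weighted FPKM, 119 against the other control, 41 with both controls pooled and 7 at 2-fold. The CHEK1 log2 fold change ranged from -0.37 without the H929 library labelled knockdown to 0.21 without the ARP1 one. Against the other control the log2 fold change reversed to -0.14 for AMPD1, 0.31 for TNS3, 0.07 for PTPRF, 0.11 for CREB3L3, 0.86 for GXYLT2, 0.25 for TANC2, 0.5 for LIMA1 and 0.18 for CYP1A1, which was 0.05 by its main transcript alone. The cause was not tested.

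The ATF4 pathway list kept a median log2 fold change of 0.67 to 1.56 with each library left out, and 1.42 against the other control. Medians of the heat shock list were -0.67 to -0.16 and of tubulins -1.27 to -0.12 with each library left out, smallest in size without the ARP1 library labelled knockdown. The median of proteasome activators, immunosubunits and assembly factors ran from -0.33 to 0.01, that of the type I interferon response was 0.01 against the other control, and that of immediate early genes 0.32 against it and 0.1 with both controls pooled. Depth is unknown, which limits what can be said of genes near FPKM 1.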
